A study of Mus musculus with 24 samples.

Results

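The skeletal muscle genes described here are 10 of the 20170 genes that the arrays name: Myod1, Myog, Myh1, Myh3, Myh8, Acta1, Actc1, Tnnt3, Tnnc2 and Des. They were chosen by the strong fall of skeletal myosin signals in tunicamycin-treated Atf4-null fibroblasts, so every comparison that uses the Atf4-null arrays is given as a description, with no test. Each gene is represented by its brightest probe over all 24 arrays. Of the 10 genes, 7 passed the filter on dim probes and were tested among 14459 genes. The probes used for Myod1, Myh3 and Actc1 were not well above background on any of the 24 arrays, and these genes were not tested.

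RNA came from mouse embryonic fibroblasts, cells grown out of embryos, and each sample was read on 1 one-colour Agilent array. Wild-type cells were left untreated (n = 4) or given tunicamycin (n = 4), a drug that blocks N-glycosylation and so lets misfolded proteins gather in the endoplasmic reticulum. Perk-null, Atf4-null and homozygous eIF2a A/A cells, whose translation initiation factor can no longer be phosphorylated at its regulatory serine, were left untreated or given tunicamycin (n = 2 each). Cells with a Fv2E-PERK transgene, whose kinase a dimerizing compound can switch on, were left untreated or given AP (n = 2 each), an abbreviation that the labels leave unexplained and give no dose for. Tunicamycin was used at 2 µg per mL, and both treatments lasted 12 h by the sample labels, while the shared protocol allows a longer time too. The labels name no promoter for the transgene, and no statement says whether a mutant genotype was 1 clone or whether replicates were separate cultures. The p-values here reflect the scatter among arrays of a group, part or all of which may be technical.

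The arrays fell into 3 scan runs, a run being the arrays scanned in the same year. Wild-type replicates 1 and 2 were scanned with Atf4-null arrays in run 1, and replicates 3 and 4 with Perk-null arrays in run 2. Run 3 had no wild-type array, only Fv2E-PERK and eIF2a A/A ones. Its arrays were of another design than those of runs 1 and 2, and 57 probes name another gene in the other design. Between run 3 and the other runs, line, run and array design cannot be told apart. Wild-type cells of runs 1 and 2 carry different line names in the deposited files, so run and line cannot be told apart. In run 1 untreated and treated arrays lay on separate slides and were scanned on separate days. Treated replicates 1 and 2 were scanned on days 1 and 3, and untreated replicates 1 and 2 on days 2 and 4. Slide, scan day and treatment therefore cannot be told apart there either, nor can scan day and replicate. In run 2, untreated Perk-null replicate 1 and treated replicate 2 shared the slide of the wild-type arrays. Untreated Perk-null replicate 2 and treated replicate 1 lay on another slide. The array of untreated Perk-null replicate 2 carries a longer mock treatment in the name of its data, unlike its label. A level is the log2 of a probe's signal after division by the 75th percentile of its array, which ranged from 111 to 418 intensity units. The lowest signal well above background lay at levels of -5.19 to -3.33, depending on the array. Atf4 itself read 7.20 to 7.65 on untreated wild-type arrays, 2.79 and -0.05 on untreated Atf4-null arrays, and -4.27 and 0.01 on treated ones. Eif2ak3, which encodes PERK, read -0.47 to 0.28 on the Perk-null arrays against -0.05 to 1.79 on wild-type arrays, so this probe does not check the deletion. All 14 of 14 listed fibroblast markers passed the filter on dim probes, as did 7 of 7 epithelial and 7 of 8 neural markers. Passing needs signals well above background in only 1 group, so it does not show these markers in every line.

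Skeletal muscle forms when transcription factors of the MyoD family, among them Myod1 and later Myog, bind E-boxes in the promoters of muscle genes together with MEF2 factors. Myoblasts then fuse and switch on sarcomeric genes: embryonic, perinatal and adult myosin heavy chains, the actins of the thin filament, the troponins that make contraction depend on calcium, and desmin, the intermediate filament that ties Z discs together. Actin promoters also carry CArG boxes, the sites of serum response factor, which fibroblasts use for contractile genes. Fibroblasts are not a muscle lineage, and forced MyoD is the classic way to turn them into muscle.

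The upstream sequences of 8 of the 10 genes were taken from RefSeq (mouse, GRCm38.p6) and are shown first for the genes whose levels differed most between lines. Promoters ran from 250 bases before to 50 bases after each start, and both strands were searched. E-boxes (CANNTG) occurred in 7 of the 8 promoters, against 72.3% of 32851 mouse promoters. A MEF2 site (YTAWWWWTAR, with Y for C or T, W for A or T and R for A or G) occurred in 2 of the 8, against 3.19%. A CArG box (CCWWWWWWGG) occurred in 2 of the 8, against 1.63%. Near matches to these patterns were not counted. None of these matches is a measured site of binding.

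The MEF2 site, in capitals, was found upstream of the pair of myosin genes that read high together in untreated Atf4-null cells. Myh1 lies at chr11:67199862-67199942 and Myh8 at chr11:67276996-67277076 in these stretches, both on the plus strand, from 240 to 160 and from 128 to 48 bases before the start.
Myh1: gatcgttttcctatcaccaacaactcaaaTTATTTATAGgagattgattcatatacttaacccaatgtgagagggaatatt
Myh8: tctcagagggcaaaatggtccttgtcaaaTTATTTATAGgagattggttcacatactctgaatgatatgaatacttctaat
Aligned on the site, 44 of the 81 bases were identical, and the longest run that both shared was 22 bases.

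The CArG box, in capitals, was found upstream of both sarcomeric actins, of which the first had the widest range of levels that were above background and the other had no such level at all. The Acta1 stretch is chr8:123894797-123894877 and the Actc1 stretch chr2:114052876-114052951, both on the minus strand.
Acta1: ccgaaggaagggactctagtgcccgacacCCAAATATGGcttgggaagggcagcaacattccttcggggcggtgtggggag
Actc1: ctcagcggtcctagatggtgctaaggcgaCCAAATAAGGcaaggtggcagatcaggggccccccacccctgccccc

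E-boxes, in capitals, are shown for the 2 genes whose levels set 1 line apart, Myog for Perk-null and Des for Fv2E-PERK cells. The Myog stretch is chr1:134289854-134290003 and the Des stretch chr1:75360227-75360291, both on the plus strand and both ending at the base before the start.
Myog: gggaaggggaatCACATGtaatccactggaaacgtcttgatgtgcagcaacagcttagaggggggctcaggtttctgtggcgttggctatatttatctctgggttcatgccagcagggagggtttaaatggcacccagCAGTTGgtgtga
Des: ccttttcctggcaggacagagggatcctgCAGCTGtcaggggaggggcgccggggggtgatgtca

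Most of the 10 genes were dark in most groups. On every array of their group, 1 gene was well above background in untreated and 2 in treated wild-type cells, 3 in untreated and 3 in treated Perk-null cells, and 5 in untreated and 2 in treated Atf4-null cells. The counts were 3 and 3 in Fv2E-PERK and 2 and 2 in eIF2a A/A cells. Acta1 and Tnnc2 were above background on 23 arrays each and Tnnt3 on 12. Des was above background on 5 arrays, Myog on 4, and Myh1 and Myh8 on 3 each. The genes did not rise and fall as a block: each of Myog, the myosin pair and Des stood above background in 1 line, with a single Des array elsewhere.

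**Figure D1:**
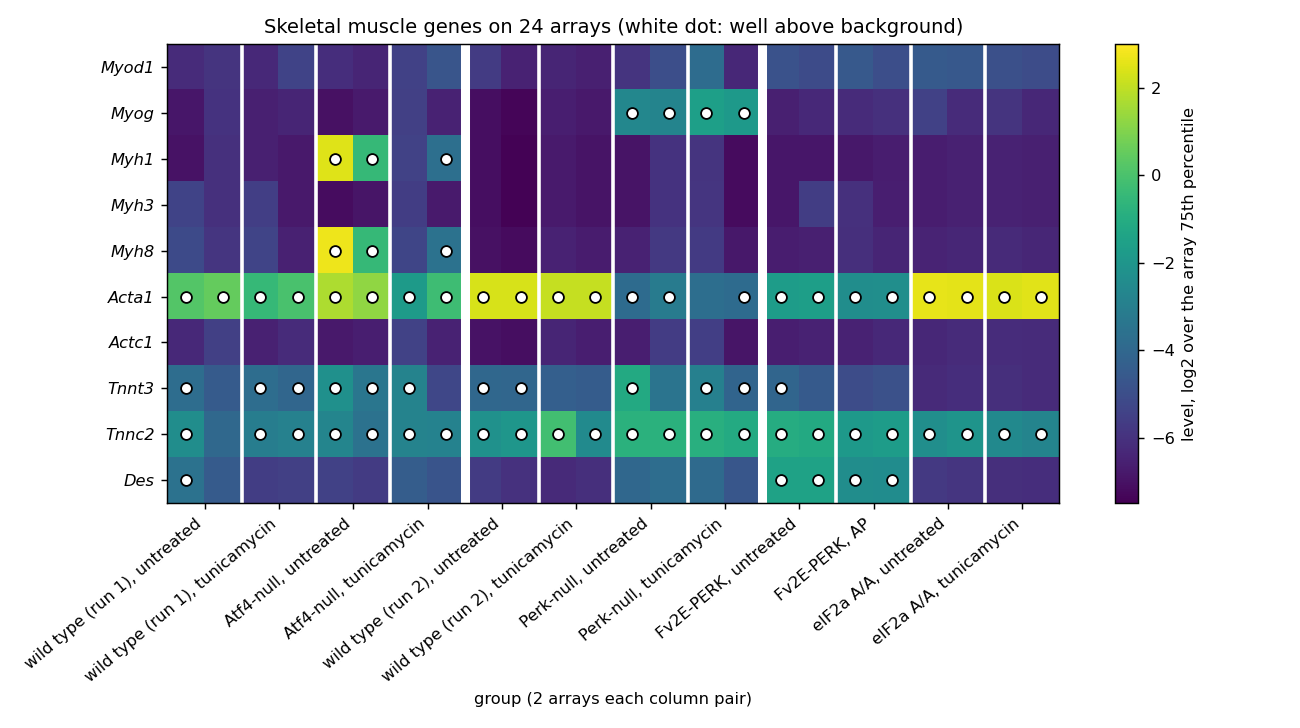
Level of each of the 10 genes (rows) on each of the 24 arrays (columns, 2 arrays per group and run), coloured by level on the log2 scale. A white dot marks an array on which the probe was well above background: the dots of Myog lie in Perk-null columns, those of Myh1 and Myh8 in Atf4-null columns, and 4 of the 5 of Des in Fv2E-PERK columns.

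Of the transcription factors, Myod1 gave no level above background in any group. Myog, which drives myoblasts into differentiation, was read in the Perk-null line. It stood at -2.62 and -2.78 on the untreated and at -1.58 and -1.88 on the tunicamycin-treated Perk-null arrays. On the other 20 arrays its values ranged from -7.36 to -5.46 and none was well above background. Untreated Perk-null cells were at least 4.97-fold brighter for Myog than untreated wild-type cells of the same run, and at least 3.81-fold brighter than all 4 untreated wild-type arrays. Such a bound sets the mean of the brighter group over, on each array of the dimmer group, the higher of the gene's own signal and the lowest signal well above background. With tunicamycin, Perk-null cells were at least 7.26-fold brighter than wild-type cells of run 2.

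Myog passed the filter through the Perk-null groups alone, in which it is high, so its call in untreated Perk-null against wild-type cells (limma, adjusted p = 6.58e-08, n = 2 and 4) adds nothing to the bounds above. With normexp background correction, which adds an offset to every signal, the difference was 1.14 on the log2 scale, smaller than those bounds. Of the 7 genes tested in this comparison, 3 were higher and 1 was lower. Over all 14459 genes 41.1% were called, 16.3% higher and 24.8% lower, so a call as such does not set these genes apart. The untreated arrays of both lines did not overlap for 4 of the 7 genes, against 48.1% of all genes. Without untreated Perk-null replicate 2, the array with the unlike name, 4 were called as well.

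Within the Perk-null line both treated arrays lay above both untreated ones for Myog, a difference of 0.97 ± 0.34 that did not pass the test (limma, adjusted p = 0.196). Of the 7 genes, 0 were called in the Perk-null response and 1 had an unadjusted p under 0.05, against 2.28% of all genes called. Myh1, Myh8 and Des were not above background on any Perk-null array, so the count says nothing of them. The arrays of 2 of the 7 did not overlap between treatments, against 46.8% of all genes. With quantile normalization the Myog rise passed (limma, adjusted p = 0.00761). The response of Perk-null cells for Myog exceeded that of wild-type cells by 0.75 ± 0.42 (limma, adjusted p = 0.269), a wild-type response whose arrays were all below background.

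Of the myosin heavy chains, the motors of the thick filament, Myh1 and Myh8 were well above background in Atf4-null cells and on no array of another line. Myh1, an adult fast isoform, stood at 2.49 and -0.45 on the untreated Atf4-null arrays and at -5.43 and -3.68 on the treated ones, of which the first was not well above background. Myh8, the perinatal isoform, stood at 2.74 and -0.46 untreated and at -5.32 and -3.52 treated, again with the first treated array below background. Both genes therefore ranked the 4 Atf4-null arrays alike. Untreated replicates lay far apart, and neither gene's treated arrays reached the untreated ones.

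On the fitted means, tunicamycin-treated Atf4-null cells were 47.7-fold lower for Myh1 and 47.2-fold lower for Myh8. These means include treated replicate 1, on which neither gene was above background, so the folds are not exact. With normexp background correction the Myh1 difference was -2.89 on the log2 scale. The log2 difference of -5.58 for Myh1 ran from -7.04 without untreated replicate 2 to -4.11 without untreated replicate 1, and was -4.70 without treated replicate 1 and -6.45 without treated replicate 2. Untreated Atf4-null cells were at least 38.4-fold brighter for Myh1 and at least 41.7-fold brighter for Myh8 than untreated wild-type cells of run 1. The spread of these arrays was shared by Atf4, whose own level was also highest on untreated replicate 1 and lowest on treated replicate 1. Treated replicate 1 also had the lowest 75th percentile of all arrays, 111 intensity units. The part of these values in the myosin result was not tested.

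Myosin heavy chain genes of this cluster are close copies of each other, and whether each probe reads only its own gene was not tested. Over the 24 arrays Myh1 and Myh8 had Pearson's r = 0.98, a correlation that rests on the untreated Atf4-null arrays. The second Myh8 probe differed: it read -3.07 on untreated Atf4-null replicate 1 and was not well above background on the other 23 arrays. Its Atf4-null means were -4.70 untreated and -4.74 treated. These include background values of -6.32 on untreated replicate 2 and of -4.51 and -4.97 on the treated arrays. This probe therefore shows neither a fall nor the lack of one. Myh2, the next adult isoform, read -1.31 on 1 untreated Atf4-null array and -3.44 on 1 untreated eIF2a A/A array, and was above background on no other array. Myh4 was above background on none of the arrays. Myh3, the embryonic isoform, was not above background with the probe used here, and its other probe was above background on 1 array.

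In the other lines, Myh1 ranged from -7.44 to -5.92 and Myh8 from -7.18 to -5.16 without a single array above background. Their fitted responses there were small against their error, from -0.09 ± 0.72 in Perk-null to 0.14 ± 0.51 in wild-type cells for Myh1. The untreated Atf4-null arrays enter the common estimate of the spread for both genes.

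**Figure D2:**
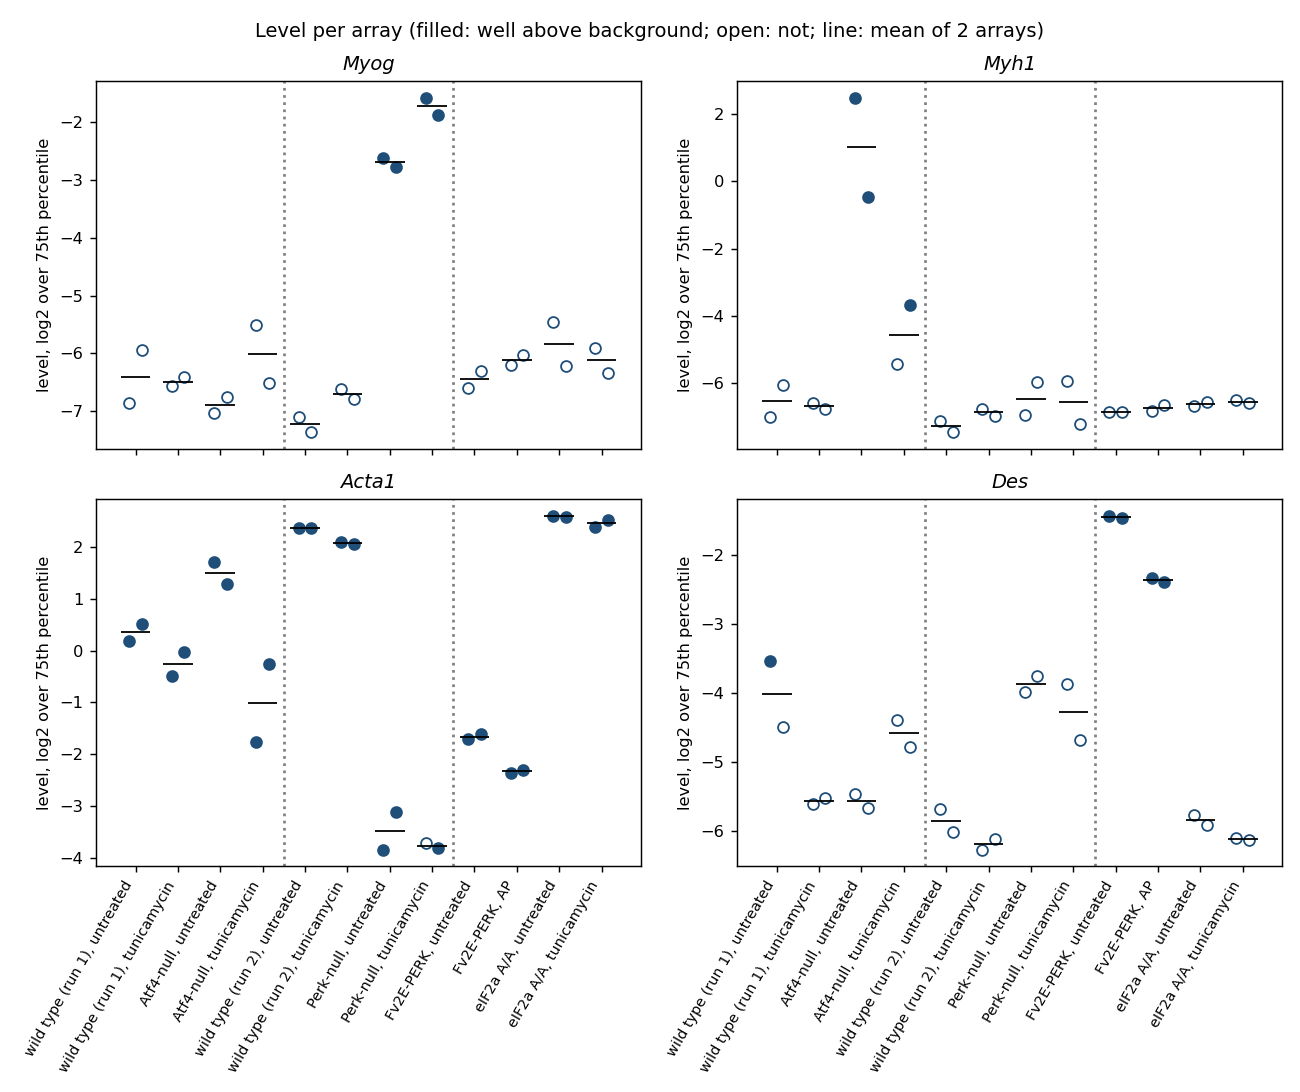
Level per array, log2 over the array's 75th percentile, of Myog, Myh1, Acta1 and Des in each group, with wild type split by scan run; filled points were well above background, open points were not, lines are means of 2 arrays and dotted lines part the scan runs. Myog is filled in Perk-null cells, Myh1 in Atf4-null cells and Des mainly in Fv2E-PERK cells, while Acta1 spans from -3.84 to 2.61.

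Acta1, the skeletal alpha-actin of the thin filament, was above background on 23 of the 24 arrays and differed between lines. Untreated and treated levels were 2.59 ± 0.02 and 2.45 ± 0.09 in eIF2a A/A cells (SD, n = 2 each). They were 2.37 and 2.37 against 2.10 and 2.07 in wild-type cells of run 2, and 0.19 and 0.52 against -0.49 and -0.03 in those of run 1. Atf4-null cells read 1.70 and 1.28 untreated and -1.76 and -0.26 treated, Fv2E-PERK cells -1.70 and -1.62 untreated and -2.35 and -2.30 with AP, and Perk-null cells -3.84 and -3.12 untreated and -3.72 and -3.81 treated. The eIF2a A/A and run 2 wild-type arrays thus stood at the top, the Perk-null arrays at the bottom, and 1 treated Perk-null array was not above background. This order sets eIF2a A/A and Fv2E-PERK cells, read in run 3 on the other array design, beside lines of other runs.

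Within run 2, untreated Perk-null cells were 57.6-fold lower than wild-type cells for Acta1, and the groups did not overlap. The fitted difference was -5.93 ± 0.32 (limma, adjusted p = 2.79e-09, n = 2 and 4). Of the calls in that comparison, Acta1 alone was lower. Untreated wild-type cells also differed between runs, run 1 minus run 2 being -2.02 ± 0.35 (limma, adjusted p = 0.000618), where 31.7% of all genes were called. Run and line cannot be told apart there.

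The Acta1 changes with treatment were -0.45 ± 0.24 in wild-type cells (limma, adjusted p = 0.164), -0.29 ± 0.35 in Perk-null, -0.14 ± 0.35 in eIF2a A/A and -0.67 ± 0.35 in Fv2E-PERK cells with AP, and none of them passed. Treated wild-type arrays lay below the untreated ones within each run, by 0.61 in run 1 and 0.29 in run 2. In Atf4-null cells the 2 treated arrays lay below the untreated ones, 5.67-fold lower on the means, given as a description.

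Over the 24 arrays the genes most like Acta1 were the smooth muscle genes Acta2 and Tagln, with Pearson's r = 0.97 for each, a list looked up after the values were seen. Those levels are set by few lines, and the coding sequences of the actin genes are close copies, so whether the Acta1 probe also reads Acta2 RNA was not tested. Actc1, the cardiac and fetal muscle actin, lay between -7.13 and -5.41 on all 24 arrays, none of them above background.

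The fast troponins gave low signals with line differences of their own. Tnnc2, the calcium-binding subunit of fast fibres, read -0.78 and -0.79 in untreated Perk-null cells, and its mean was -1.06 in untreated Fv2E-PERK cells. Untreated wild-type arrays read -2.36, -3.96, -2.20 and -1.97, the second of them not above background, so Perk-null arrays lay above all of these. The difference of 1.17 ± 0.52 did not pass (limma, adjusted p = 0.0858), but passed with normexp and without untreated wild-type replicate 1. Among treated wild-type arrays replicate 3 stood at -0.18 while the other three read from -3.03 to -2.49. The wild-type change of 0.48 ± 0.39 (limma, adjusted p = 0.371) includes that array.

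Tnnt3, the fast troponin subunit that binds tropomyosin, differed widely between arrays of the same group. It read -1.13 and -3.45 in untreated Perk-null cells, the second not above background, and -2.91 and -4.12 in treated ones. Untreated Atf4-null arrays read -2.21 and -3.37, and untreated wild-type arrays lay between -4.50 and -3.75. In eIF2a A/A cells no array was above background, with values of -6.25 to -6.08. The untreated Perk-null difference from wild type, 1.88 ± 0.67 (limma, adjusted p = 0.0349), rested on 1 array: without untreated Perk-null replicate 1 it was 0.72 (limma, adjusted p = 0.472). It was also lost without untreated wild-type replicate 3 or 4 (adjusted p = 0.0603 and 0.0657), with quantile normalization (0.118), without the filter on dim probes (0.0503), with run 2 wild-type arrays only (0.0871) and with only the arrays compared in the fit (0.139). The gene's other probe read at -3.90 in untreated Perk-null and -4.82 in untreated wild-type cells.

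Des, the muscle intermediate filament that smooth muscle also makes, was well above background on all arrays of the Fv2E-PERK line. It read -1.44 and -1.47 untreated and -2.34 and -2.40 with AP, all above background. On the other 20 arrays it ranged from -6.26 to -3.54 and was above background on untreated wild-type replicate 1 only. The AP arrays lay below the untreated arrays without overlap, 1.89-fold lower. That change of -0.91 ± 0.35 did not pass in the fit of all arrays (limma, adjusted p = 0.176).

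In the Fv2E-PERK response 0 of the 7 genes were called and 1 had an unadjusted p under 0.05, against 4.07% of all genes called. All 7 genes had AP arrays that did not overlap the untreated ones, 4 lower and 3 higher, but so had 73% of all genes, 27.6% lower and 45.4% higher. Among the 4 lower were the genes above background in this line, with Acta1 1.59-fold and Tnnc2 1.61-fold lower and Des as given. The 3 higher, Myog, Myh1 and Myh8, were not above background on any array of this line. When the fit held the 4 Fv2E-PERK arrays alone, Acta1, Tnnc2 and Des passed (lowest adjusted p = 0.00875), against 28.8% of all genes. Both fits use the same array means of this line, so the direction could not differ between them.

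The other Des calls rest on dim values. In the wild-type response Des was the only gene of the 7 called, lower by 0.94 ± 0.25 (limma, adjusted p = 0.00686, n = 4 each), against 37.5% of all genes called, 16.3% lower and 21.2% higher. Untreated arrays read -3.54, -4.50, -5.68 and -6.01 and treated ones -5.61, -5.52, -6.26 and -6.10, so the groups overlapped and 1 of the 8 arrays was above background. Within run 1, where 37% of all genes were called, the change was -1.54 (limma, adjusted p = 0.00057), with only 1 untreated array above background. Within run 2, where 21.2% were called, it was -0.34 (adjusted p = 0.457), with no array above background. With normexp background correction the change was -0.02 (adjusted p = 0.922), and with the wild-type arrays alone in the fit the adjusted p was 0.0633.

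Untreated Perk-null cells were called higher than wild type for Des (limma, adjusted p = 0.000714), but neither Perk-null array was above background, and only 1 of the 4 wild-type arrays was, so no size is given. With normexp the call was lost (adjusted p = 0.0608). Untreated wild-type cells of run 1 exceeded those of run 2 for Des by 1.83 ± 0.28 (limma, adjusted p = 0.000209), where 31.7% of all genes were called. Only 1 of the 2 run 1 arrays and 0 of the run 2 arrays were above background. The 1.83 is therefore not an exact size, and no bound is given in its place.

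The remaining comparisons called none of the 7 genes. In eIF2a A/A cells 0 of 7 were called with tunicamycin and 0 had an unadjusted p under 0.05, against 4.9% of all genes called. In that line only Acta1 and Tnnc2 were above background, so the count says nothing of the other 5 genes. The arrays of 3 of the 7 did not overlap, against 68.4% of all genes. The largest of the 7 changes was that of Tnnc2, -0.46 ± 0.56. Set directly against the wild-type response, the Perk-null response differed for 0 of the 7 genes and the eIF2a A/A response for 0, each with 0 at an unadjusted p under 0.05, against 13.2% and 18.2% of all genes. All of these comparisons share the wild-type arrays. Myog, Myh1 and Myh8 were above background on no wild-type array, and Des on 1 untreated one only. Counts set against the wild-type response therefore cannot be read as a lack of difference for these genes. The wild-type responses of runs 1 and 2 differed from each other for 0 of the 7, with 1 at an unadjusted p under 0.05, against 7.88% of all genes. The 2 arrays per mutant group limit the precision: intervals of these differences are wide, and a miss does not show that lines respond alike.

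**Figure D3:**
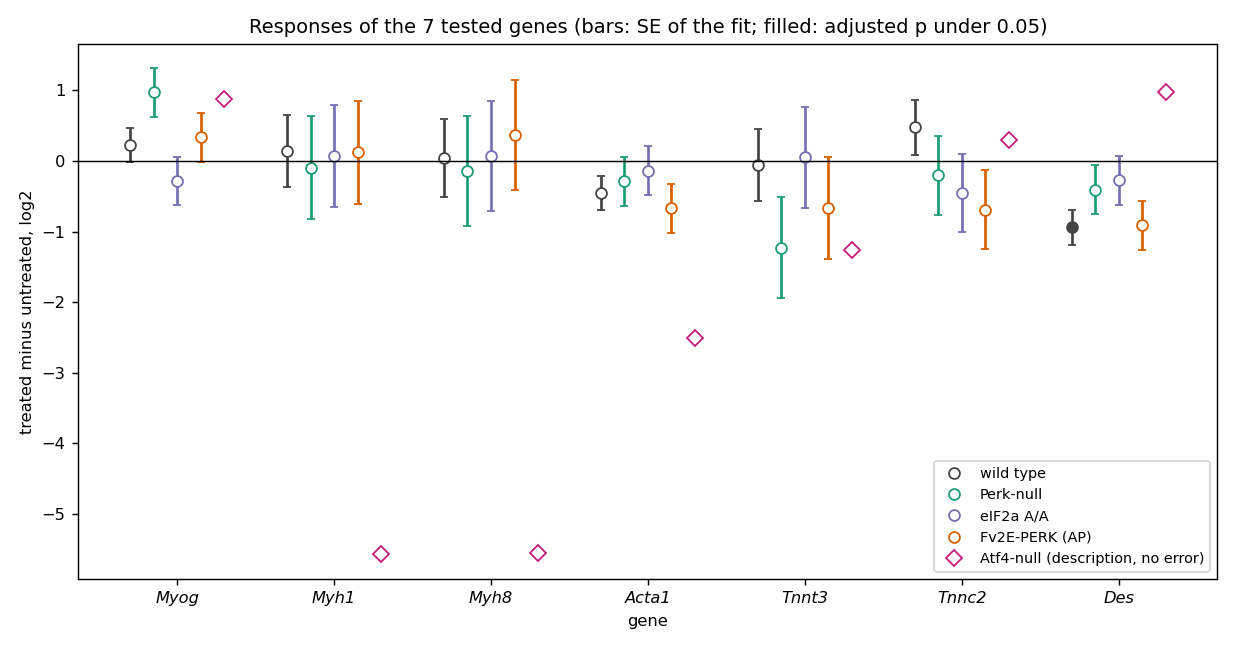
Change with treatment (treated minus untreated, log2) of the 7 tested genes in each line; circles are fitted changes with their SE, filled where the adjusted p was under 0.05, and diamonds are Atf4-null differences with no error. Only Des in wild-type cells is filled; Myh1 and Myh8 fell by 5.58 and 5.56 between the untreated and treated Atf4-null means.

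In the Atf4-null comparison itself, the arrays of 5 of the 7 genes did not overlap between treatments, 3 lower and 2 higher, against 54.9% of all genes, 29.4% lower and 25.4% higher. This contrast chose the genes, and its count is given without a reading. The 3 lower genes were Myh1, Myh8 and Acta1. The 2 higher were Myog and Des, neither above background on any Atf4-null array.

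Beyond the 10 genes, lists of further muscle genes were counted in the wild-type response, in which 21.2% of all genes were called higher and 16.3% lower, with a median change of 0.07 over all genes. Counts are out of the tested genes of each list. Myogenic regulators had 1 higher and 4 lower of 9 (median -0.19). Hdac4, a deacetylase that represses MEF2, rose by 1.59 ± 0.14, and the homeobox gene Six4, which acts upstream of the MyoD family, fell by 0.99. Hdac4 moved the same way within each run, by 1.86 and 1.33, and so did Six4, by -1.19 and -0.79. The Hdac4 response of Perk-null cells minus the wild-type one was -1.44 ± 0.25 (limma, adjusted p = 0.00168). Myoblast surface, fusion and postsynaptic genes had 3 higher and 3 lower of 11 (median 0.09). Chrnb1 and Chrng, subunits of the muscle acetylcholine receptor, rose 4.28-fold and 2.84-fold (limma, adjusted p = 0.00109 and 0.00403), and the caveolin gene Cav3 fell by 1.79.

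Among structural lists, thick filament and M line genes had 1 higher and 0 lower of 9 (median 0.27). The 1 was Myom2, a protein that crosslinks myosin at the M line, which rose (limma, adjusted p = 4.93e-07) and was above background on 2 of the 4 untreated and all 4 treated arrays. Untreated and treated wild-type arrays of run 1 had Myom2 at -3.85 to -1.89 and at 0.85 to 1.16, a 14.7-fold rise on the means. Those of run 2 went from below background to between -0.83 and -0.82, at least 18.3-fold brighter. No array of the other lines was above background for Myom2. Its signal in treated Perk-null cells was at least 11.1-fold lower than in treated wild-type cells of run 2.

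Thin filament and troponin genes had 0 higher and 4 lower of 12 in the wild-type response (median -0.26), to be read, as the counts that follow, against 21.2% of all genes called higher and 16.3% lower. Slow and cardiac troponin genes were among them, Tnnc1 at -1.45 ± 0.37 and Tnnt1 at -1.27 ± 0.23, together with the tropomyosin gene Tpm1 at -0.89 ± 0.19. The Tnnc1 change was -2.64 in run 1 and -0.25 in run 2. Z disc, titin and costamere genes had 0 higher and 2 lower of 8 (median -0.24), the intermediate filament gene Synm at -1.59 ± 0.33 and the fast alpha-actinin Actn3 at -0.76 ± 0.25. Calcium handling and excitation genes had 1 higher and 1 lower of 7 (median -0.06). Atp2a1, the calcium pump of fast fibres, rose 2.83-fold, by 1.20 in run 1 and 1.80 in run 2 on the log2 scale, and Srl, a calcium-binding protein of the sarcoplasmic reticulum, fell by 0.75. Muscle metabolism and turnover genes had 0 higher and 1 lower of 7 (median -0.29), the muscle enolase Eno3, which fell by 0.75.

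Genes that hold myogenesis back were called lower more often than they were called higher. These brakes, among them Id proteins that sequester the partners of MyoD and repressors such as Twist and Snai factors, had 1 higher and 9 lower of 15 in wild-type cells (median -0.95), against 21.2% of all genes higher and 16.3% lower. The changes of Id4, Id2 and Id1 were -3.15 ± 0.28, -2.47 ± 0.33 and -2.40 ± 0.26. For Id1 the change was -3.24 in run 1 and -1.57 in run 2, a difference between runs of -1.67 ± 0.30 (limma, adjusted p = 0.00355). In eIF2a A/A cells 0 were higher and 5 lower of 15, against 3.08% and 1.82% of all genes, with Id1 at -3.64 ± 0.37. In Perk-null cells 0 were higher and 1 lower, against 1.87% and 0.408%, with Id1 at -2.23 ± 0.37, and with AP in Fv2E-PERK cells 0 were called. Set against the wild-type response, that of Id1 did not pass in Perk-null (0.18 ± 0.45) or in eIF2a A/A cells (-1.23 ± 0.45, limma, adjusted p = 0.0693). In Atf4-null cells the Id1 means differed by -3.46, given as a description. Smooth muscle markers, with 0 higher and 5 lower of 6, and fibroblast markers, with 1 higher and 8 lower of 14, moved down in the same wild-type comparison, and their part in these counts was not tested.

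In Fv2E-PERK cells AP lowered 2 of 12 tested thin filament and troponin genes, Tnnt1 by 1.82 ± 0.32 and Tnni1 by 1.24 ± 0.31 (limma, adjusted p = 0.00482 and 0.036), where 1.28% of all genes were called lower and 2.79% higher. Chrnd was the only called gene of the 11 on the myoblast surface list, higher by 1.99 ± 0.46. Of 7 metabolism and turnover genes 0 were higher and 2 lower, Eno3 and the small heat shock gene Cryab. These names were taken after the values were seen.

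The Perk-null line, which alone showed Myog, also differed from wild-type cells in other muscle genes, named here after their values were seen. Whether these genes set it apart from the other mutant lines was not tested. Of 12 thin filament and troponin genes 5 were higher and 2 lower than in untreated wild-type cells (median 1.12 against -0.07 over all genes), where 16.3% of all genes were called higher and 24.8% lower. The slow troponin genes Tnni1 and Tnnt1 were 26.9-fold and 15.4-fold brighter than in wild-type cells of run 2. Tnni1 read 0.31 and 0.55 on the untreated Perk-null arrays and -4.57 to -4.09 on untreated wild-type arrays. Actn3 was 32.3-fold brighter within run 2, and Trim54, a ubiquitin ligase of striated muscle, at least 68.5-fold. For Trim54 the wild-type runs differed as well, run 1 being brighter with 1 of 2 arrays above background (limma, adjusted p = 0.00322). Untreated Fv2E-PERK cells read 0.12 and 0.39 for Trim54. Mybph, a myosin-binding protein, was at least 7.78-fold brighter, and Pax3, a regulator of early muscle precursors, read 3.18 and 3.42 against 1.78 and 1.84 in run 2. The Z disc, titin and costamere list, which holds Actn3, had 1 higher and 1 lower of 8. The thick filament and M line list, which holds Mybph, had 1 higher and 1 lower of 9. The metabolism and turnover list, which holds Trim54, had 2 higher and 0 lower of 7.

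Other lists did not follow. Myogenic regulators had 1 higher and 4 lower of 9 in untreated Perk-null cells, and the brakes had 3 higher and 9 lower of 15, with Twist2 at -3.91 ± 0.29. Calcium handling and excitation genes had 1 higher and 1 lower of 7, and myoblast surface, fusion and postsynaptic genes 2 higher and 3 lower of 11. Myod1, Myh1, Myh3, Myh8 and Actc1 were not above background on any Perk-null array. Myog was thus read in a line in which the myosins and the cardiac actin of the 10 genes were not.

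Markers of other cell types moved with these differences, in the comparison that called 16.3% of all genes higher and 24.8% lower. Epithelial markers had 4 higher and 0 lower of 7 in untreated Perk-null cells: Cdh1, the cadherin of epithelia, read -0.84 and -0.14 where no wild-type array was above background, at least 22.9-fold brighter than in run 2, and the keratin gene Krt18 read 5.43 and 5.71 against -0.74 to 0.28. Fibroblast markers had 1 higher and 11 lower of 14 (median -1.97), and smooth muscle markers 0 higher and 5 lower of 6 (median -4.62), with Acta2 at -7.36 ± 0.39. In a bulk sample, a different mix of cells and a different amount of RNA per cell cannot be told apart. The part of these markers in the Myog and Acta1 differences was not tested.

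**Figure D4:**
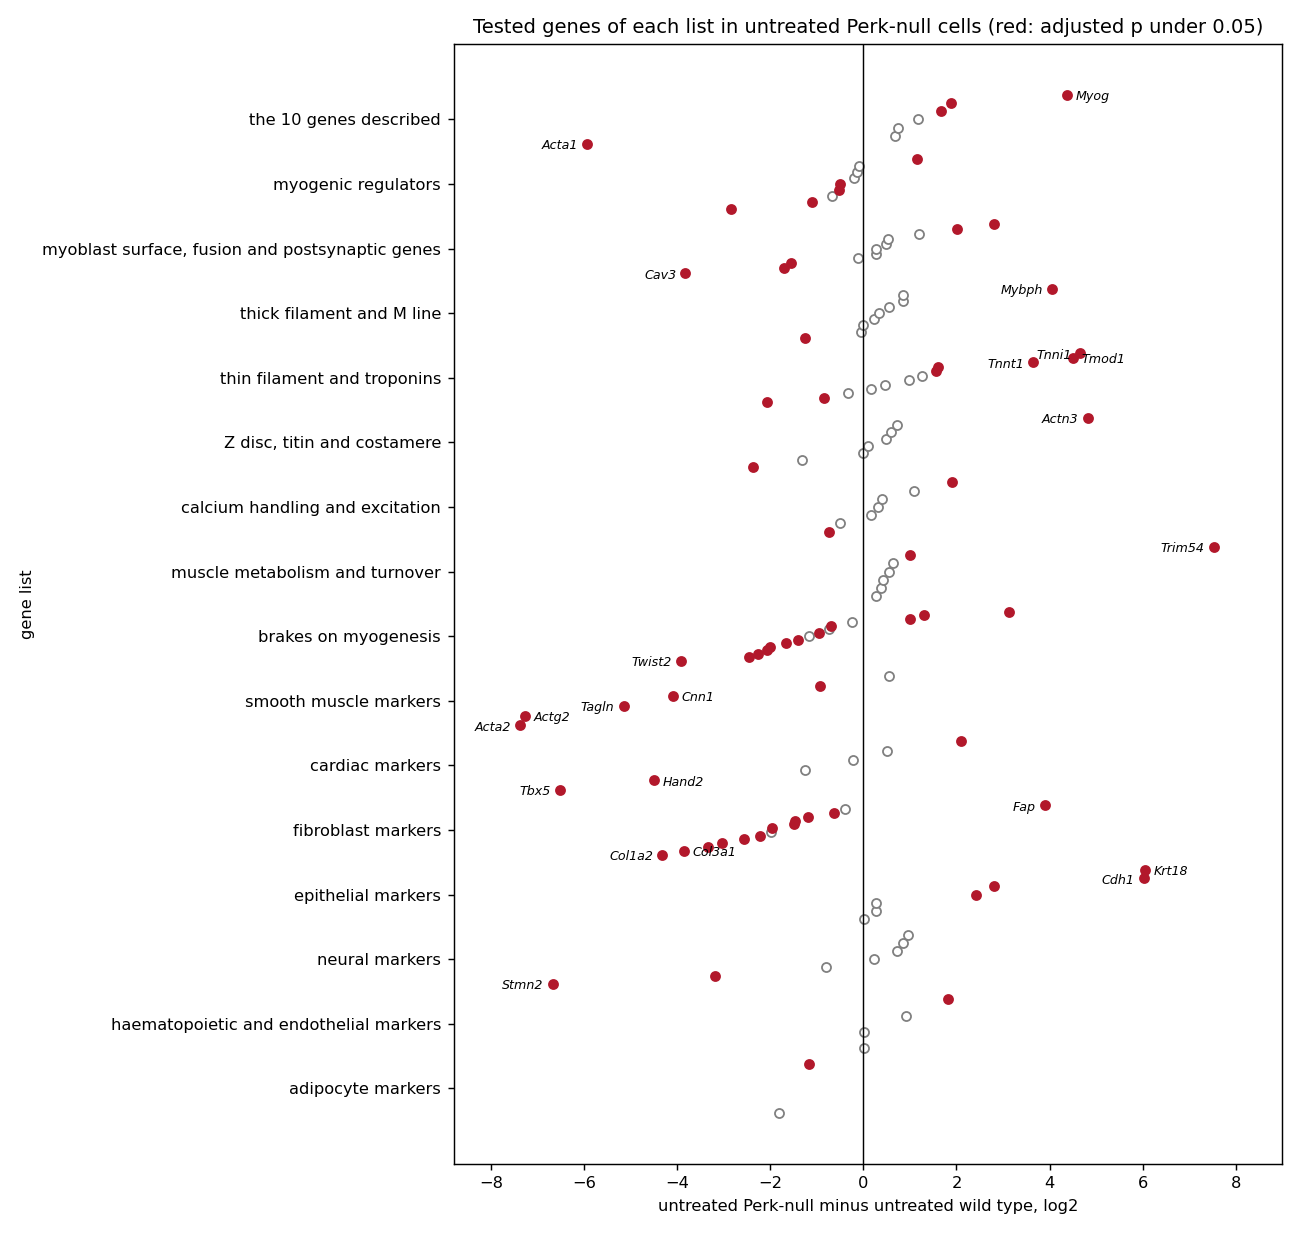
Difference of untreated Perk-null from untreated wild-type cells (log2, fitted) for each tested gene of the muscle and marker lists, red where the adjusted p was under 0.05 and open grey where not; names mark called genes beyond 3.5 in either direction. Acta1 lies with the smooth muscle and fibroblast markers on the left, and Myog with Tnni1, Actn3, Trim54 and the epithelial markers on the right.

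The genes whose levels were most like the mean profile of the 7 tested genes over 24 arrays were Fto, Tenm3, Tecr, Bace1, Tmprss6, Prr5l, Grik5, Dysf, C130050O18Rik and Tnni2, with Pearson's r from 0.78 down to 0.73. Only Tnni2, a fast troponin, and Dysf, a membrane repair protein of muscle, are muscle genes by textbook knowledge. Since 3 lines each contributed a different bright gene, the mean profile describes no single line.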

How the data were processed

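Mouse embryonic fibroblast RNA was read on 24 one-colour Agilent arrays. Per the file headers, the authors' scanner output came from Agilent Feature Extraction 10.7.1.1, whose processed signal is an intensity with background subtracted and detrended within the array, deposited beside median spot and background intensities and flags. The deposited table of the authors holds log2 values centred per probe, with the baseline unknown. After centring both on the same array, 98.3% of its values lay within 0.001 of the scanner values.

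Levels are log2 processed signal minus each array's 75th percentile of it. Of 55681 probes, 26631 had 1 gene symbol by accession and 29050 had none, giving 20170 genes at the brightest probe of each. Well above background is the scanner software's flag, on all spots of a probe. The 14459 genes so flagged on every array of at least 1 group were tested and 5711 were put aside. No spot was saturated, and 45.1 to 58.2% of probes per array were well above background.

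limma 3.58.1 (R 4.3.3) fitted 10 group means and a term for run 2 over all 24 arrays, with 13 residual and 2.23 prior degrees of freedom. Values within a run came from a fit with wild type split by run. Calls are Benjamini-Hochberg adjusted p under 0.05 over all genes tested in a contrast. On simulated data, 71% of 2-fold and 94% of 4-fold changes were recovered for the wild-type response, and 45% and 84% for the Perk-null response. The simulated noise was independent and normal at each gene's fitted spread, with no differences between lines and no background floor. Far fewer genes were changed than were called in the wild-type response. These rates therefore do not give the power for the dim genes described here.

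The genes and lists were chosen with earlier results of these data known. Named genes were the 10, at most 3 called genes of each further muscle list with the largest wild-type change, and the 10 genes most like the mean profile; others are said to be named after their values were seen, and some genes are not reported here. Alternatives were normexp background correction with an offset of 50, quantile normalization, no filter, each replicate left out, replicate block, 1 run of wild-type arrays, only the arrays compared, slide as a random block, the authors' table and the mean over probes. Same-numbered arrays did not pair (correlation of deviations from -0.47 to 0.07 by line).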

Additional observations from a re-analysis of the deposited data

Results flagged for a closer look

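Myh3 in tunicamycin-treated wild-type cells had its highest array, replicate 1, at -5.56, farther from the other 3 arrays than their own spread. None of the 4 arrays was well above background for Myh3, so the value is one of scanner background, and chance sets apart about 1 in 20 groups of this size.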

How the results depend on the processing

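No alternative reversed the sign of a called difference among the 10 genes or of the Myh1 differences. Some could not do so. Dropping the filter, or adding a replicate block, leaves the fitted change of a line's response as it was. So does fitting only the arrays compared. The authors' table holds nearly the same values as the scanner output. Signs of changes that were not called were not followed, and those of Myog, Myh1, Myh8 and Tnnt3 differed between the wild-type runs. With normexp, the wild-type response called 0 of the 7 genes in place of 1, and the Myh1 differences were -2.89 for the Atf4-null response and 3.70 for untreated Atf4-null minus wild type, in place of -5.58 and 7.69. Quantile normalization called 1 gene in place of 0 in the Perk-null response (Myog), in its difference from wild type (Myog) and in run 1 minus run 2 (Des). Wild-type arrays of run 1 alone gave 1 call in the eIF2a A/A minus wild-type response (Des), and those of run 2 alone 0 in the wild-type response. With only the arrays compared in the fit, the wild-type response had 0 calls and the Fv2E-PERK response 3. Leaving out each array in turn gave 1 to 1 calls in the wild-type response, 3 to 5 in untreated Perk-null cells and 0 to 1 in run 1 minus run 2, where Des was called without untreated wild-type replicate 2. It gave Myh1 differences of -7.04 to -4.11 in the Atf4-null response and 6.22 to 9.16 in untreated cells. With a replicate block, counts were 1 in the wild-type response and 0 in the Perk-null, eIF2a A/A and Fv2E-PERK responses. Counts were also 0 in both differences from wild type and in run 1 minus run 2. A replicate block cannot change the Myh1 difference, which stayed at -5.58. Same-numbered Perk-null arrays correlated at -0.47 and lay on different slides. Crossing their numbers, chosen after seeing the data, paired arrays of the same slide and gave 0 calls. No paired analysis was possible because no number pairs arrays between genotypes in the untreated comparisons. The cause of these changes was not tested. Untreated Perk-null cells could not be set against wild-type arrays of run 1 alone, nor untreated Atf4-null cells against those of run 2 alone, since these share no run. Signal near background limits Myog outside Perk-null, Des outside Fv2E-PERK and the myosins outside Atf4-null cells.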

Other observations

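The genes whose levels were most like single genes of the set were looked up after the values were seen. Over 24 arrays, Slc27a6, Chst5, Cdh1, Gal3st3 and Dmp1 were most like Myog, with Pearson's r from 0.98 down to 0.96. Among the genes most like Des were Cpne7, Gata1, Col6a4 and Exoc3l4, from 0.97 down to 0.93. The epithelial cadherin Cdh1 stood at 0.32 and 0.46 on the treated Perk-null arrays, above the untreated ones, as Myog did. Among the set itself, Acta1 ran opposite to Myog (r = -0.72) and to Des (r = -0.71). The arrays of a line share a genotype, so each of these values rests on differences between few lines.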
